A study of Homo sapiens with 20 samples.

Results

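The 10 histone deacetylase genes HDAC1 to HDAC10 were followed in wild-type MM1.S cells, a line established from a multiple myeloma, after exposure to dCBP-30, a degrader of the acetyltransferases CBP and p300. The members were taken by name, each through the annotated transcript with the most reads, and make up 10 of the 19593 genes with counts. Cells received 10 nM dCBP-30 or the vehicle DMSO for 2, 6 or 24 h, with 3 libraries for each of the 6 groups, and 4-thiouridine (4sU) was added for the last 1 h, so that the labelled groups share this label and differ in the compound. RNA made in that hour carries T-to-C conversions in its reads (T>C reads), whereas the total reads of a gene count old and new RNA together. A further 2 libraries had no 4sU and give the background of conversions. All libraries come from 1 cell line, and the methods describe triplicate samples from cells seeded in wells before treatment, without saying whether these go back to separate starting cultures or days, so the p-values measure the spread between these libraries, which may be technical.

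Histone deacetylases remove acetyl groups from lysines and so act against acetyltransferases such as CBP and p300. Class I enzymes (HDAC1, HDAC2, HDAC3 and HDAC8) are mainly nuclear, and HDAC1, HDAC2 and HDAC3 work inside corepressor complexes. Class IIa members (HDAC4, HDAC5, HDAC7 and HDAC9) have little deacetylase activity of their own, bind MEF2 transcription factors, and leave the nucleus when kinases phosphorylate them and 14-3-3 proteins hold them. Class IIb consists of HDAC6, a cytoplasmic tubulin deacetylase, and HDAC10, a polyamine deacetylase.

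Libraries held 12439665 to 18727385 reads on genes, and T>C reads were 4.71% to 8.62% of them with 4sU against 0.794% and 0.809% without. Values below are reads-per-million values (RPM) over the library's total reads times its TMM factor, a scaling factor that sets most genes to no change. These factors were 0.873 to 0.935 under DMSO and 1.29 to 1.32 under dCBP-30 at 24 h. Leaving them out moved the median gene's log2 fold change in total reads from 0.05 to 0.58 at 24 h and from 0.02 to 0.35 at 6 h, and that in T>C reads from -0.69 to -0.16 at 24 h and from -0.27 to 0.04 at 6 h. Conversions per T>C read were 1.43 to 1.51 under dCBP-30 at 24 h against 2.46 to 2.51 under DMSO, and the part of this in the 24 h values was not tested. Plasma cell markers were abundant under DMSO (SDC1, the plasma cell syndecan, averaged 1380.7 RPM and XBP1, a plasma cell transcription factor, 1319 RPM), while CD3D, LYZ and EPCAM, markers of T cells, monocytes and epithelium, had no read in any of the 9 DMSO libraries. Other markers of such cells were not at 0 in every library: CR2, a mature B cell marker, was present at 7.46 to 15.1 RPM, the T cell marker CD3E at 2.08 to 7.19 RPM and the epithelial KRT18 at 0.134 to 1.09 RPM, each in all 9 DMSO libraries.

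All 10 members were expressed: each had reads in every library and passed the filter on low counts for both total and T>C reads. HDAC7 stood far above the rest, with 723 ± 110.0 RPM of total reads (SD over the 9 DMSO libraries) and a range of 560.0 to 862 RPM. One read comes from the 3′ end of one transcript in this assay, so these levels were not divided by transcript length. HDAC2 followed at 124 ± 7.44 RPM, HDAC3 at 115 ± 7.52 and HDAC1 at 87.9 ± 7.67, and the ranges of HDAC2 and HDAC3 overlapped, as did those of HDAC3 and HDAC1. HDAC5 averaged 60.9 ± 9.22 RPM, HDAC8 25.7 ± 3.32 and HDAC6 20.5 ± 3.77, the last pair with overlapping ranges. The scarcest members were HDAC4 (10.3 ± 1.46 RPM), HDAC10 (10.1 ± 1.78 RPM) and HDAC9 (4.37 ± 0.843 RPM). HDAC4 and HDAC10 could not be told apart by their ranges, whereas HDAC9 lay below all other members in every DMSO library. HDAC7 lay at the 98.4th percentile of the 12267 genes tested for total reads and HDAC9 at the 25.0th.

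**Figure D1:**
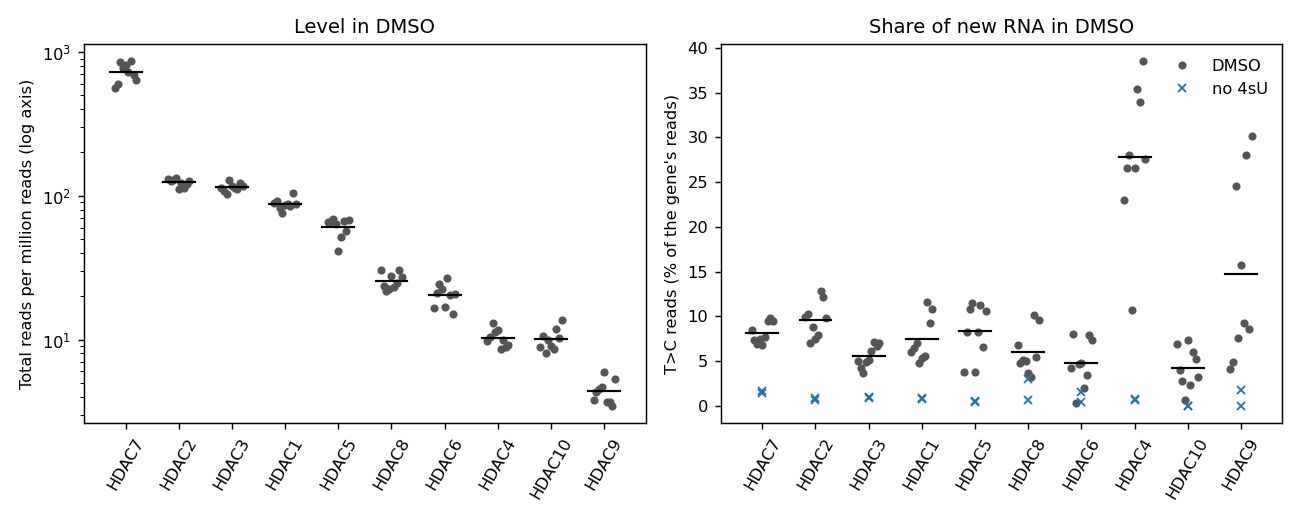
Left, total reads in RPM (log axis) of each member in the 9 DMSO libraries (points) with the mean (line). Right, T>C reads as a percentage of the gene's own reads in the same libraries, with the 2 libraries without 4sU as crosses. HDAC7 lies above every other member in level, and HDAC4 has the highest mean share of T>C reads at 27.8%.

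The members also differed in the share of their reads that were T>C reads. T>C reads made up 27.8% ± 8.14 of HDAC4 reads under DMSO (SD, n = 9), and 14.8% ± 10.3 of HDAC9 reads. The other members lay between 4.28% (HDAC10) and 9.58% (HDAC2), with HDAC7 at 8.16% ± 1.18. Without 4sU the share was 0.685% for HDAC4 and 1.59% for HDAC7 (both libraries together). The share depends in part on how many T positions a read covers, and this was 27.3 per read for HDAC4 and 27.6 for HDAC7, but 11.4 for HDAC10 and 13.1 for HDAC6. Per covered T position, 2.77% were converted in HDAC4 reads and 0.585% in HDAC7 reads. HDAC4 and HDAC7 therefore differed in their share at a like number of T positions per read. The share also differed between parts of the 3′ UTR of 1 gene. It was 7.38% in the first part and 43.97% in the rest for HDAC2, and 6.46% and 47.9% for HDAC5. These splits were made after the values had been seen. How far the region counted sets the share of HDAC4 was not tested.

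New RNA of HDAC7 was lower at 2 h, when no member's total reads passed the test. Changes were tested with edgeR's quasi-likelihood test and Benjamini-Hochberg adjustment over all genes, and a member passes at an adjusted p under 0.05. At 2 h, 1 of 10 members (HDAC7) passed as lower in T>C reads, where 8.35% of the 10083 genes tested were lower and 2.45% higher. At 6 h these were 3 of 10 (HDAC2, HDAC4 and HDAC7) against 21.3% of genes lower and 3.02% higher, and at 24 h 2 of 10 (HDAC2 and HDAC7) against 37.1% lower and 2.78% higher. No member passed as higher in T>C reads at any time, with DESeq2 and size factors from the total reads giving the same 0, while at an unadjusted p under 0.05 HDAC8 would count at 6 h and none at 2 or 24 h. This depends on the scaling: by the T>C reads HDAC8 passed as higher at 6 and 24 h, and in DESeq2 with T>C size factors HDAC1 did as well at 24 h (values beside each gene). With 10 members, 1 gene is 10% of the list, and these shares are near those of all genes or below them. The median log2 fold change of the members was -0.50, -0.29 and -0.65 at 2, 6 and 24 h, against 0.05, -0.27 and -0.69 for all genes.

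Total reads changed later and in both directions. At 2 h no member passed, by edgeR or by DESeq2, where 2.67% of the 12267 genes tested were lower and 1.54% higher; at an unadjusted p under 0.05 only HDAC2 was lower. At 6 h 4 members passed as lower (HDAC2, HDAC4, HDAC7 and HDAC9), against 21.5% of genes, and 2 as higher (HDAC3 and HDAC8), against 18.8%. At 24 h the same 4 passed as lower, against 29.9% of genes, and HDAC1, HDAC6, HDAC8 and HDAC10 as higher, against 28.6%. In DESeq2 HDAC3 passed as higher at 24 h as well. HDAC5 passed in neither measure at any time. Whether a change differed between times was tested as well. In T>C reads it did for 1 member between 6 and 2 h (8.03% of genes), 2 between 24 and 2 h (26.0%) and 1 between 24 and 6 h (12.1%), and in total reads for 4 (15.7% of genes), 8 (41.1%) and 3 (32.1%) of the 10. A lower level in these bulk libraries can mean less RNA in each cell or fewer cells that carry it, and the 2 cannot be told apart here.

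**Figure D2:**
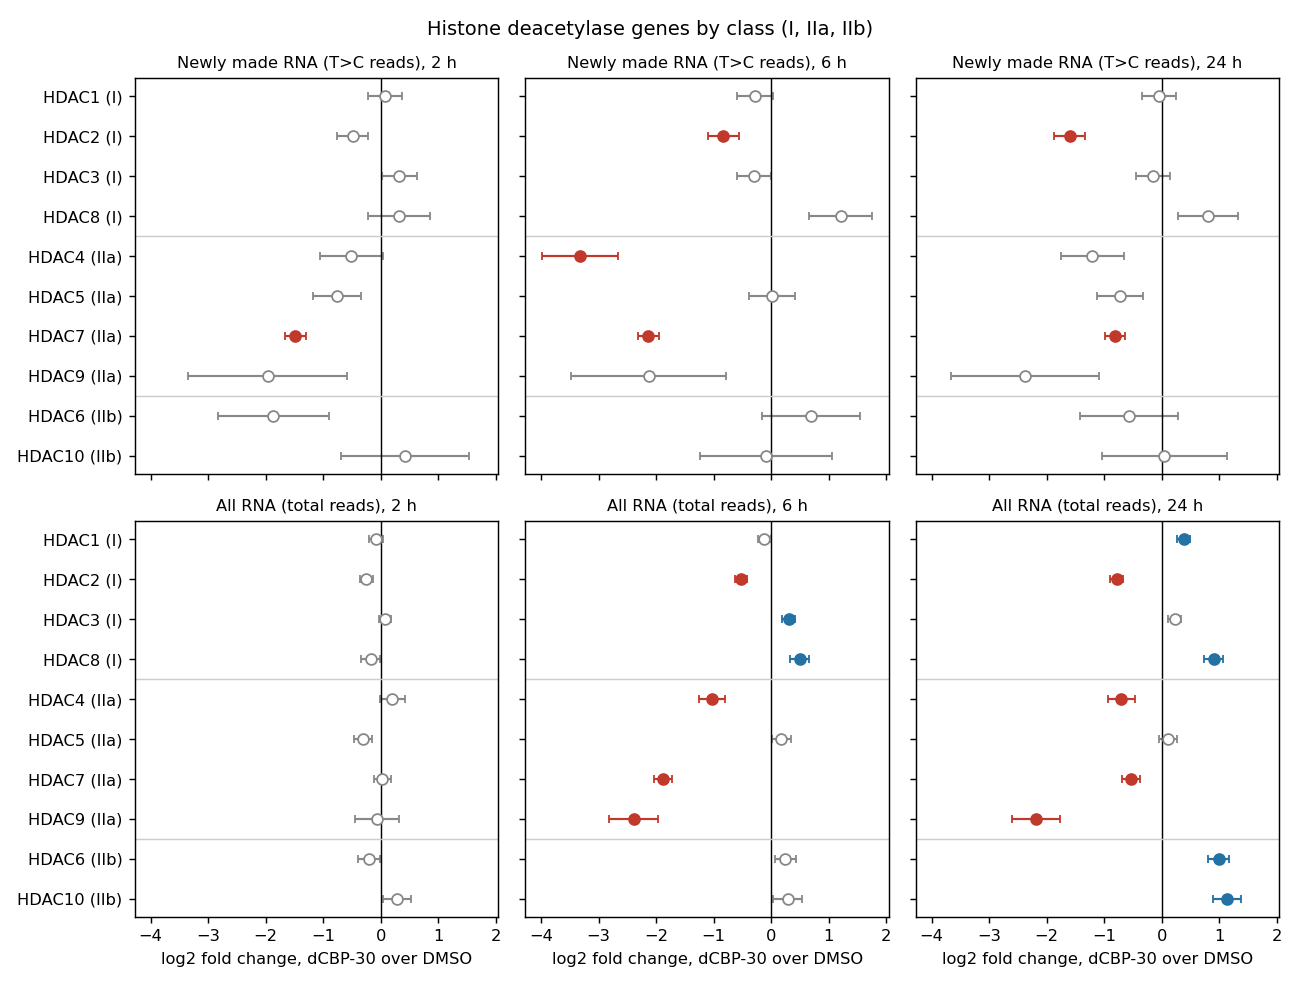
Log2 fold change of dCBP-30 over DMSO with its standard error for each member, in T>C reads (top) and total reads (bottom) at 2, 6 and 24 h, with the class in brackets. Filled red points pass as lower and filled blue points as higher (adjusted p under 0.05), open grey points do not pass. Only HDAC7 is filled at 2 h, and in total reads the class IIa members HDAC4, HDAC7 and HDAC9 stay on the left at 6 and 24 h while class IIb members lie on the right at 24 h.

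Start sites of the members that were lower in total reads (described below) are shown so that genes with a common direction can be set side by side. Each line gives the 15 bases before the start in lower case and the first 15 transcribed bases in capitals, 5′ to 3′ on the gene's strand, from RefSeq (GRCh38.p14), at the annotated start nearest to that of the counted transcript.
HDAC7 (chr12:47819889-47819918, minus): ctcccggccccctccCTTCCTCTCGCCGTC
HDAC4 (chr2:239401635-239401664, minus): accacgtgacccactGCCAGTATCCAAGAT
HDAC9 (chr7:18495734-18495763, plus): agactgagaaaggggGAAGAGAGGCACAGA
HDAC2 (chr6:113971134-113971163, minus): aggtggtttggtggcCCCCTCCTCGCGAGT
The reads sit at the 3′ end and do not show which start was used; the HDAC7 start lies 26361 bases from that of the counted transcript, which the annotation begins inside the gene.

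Promoters of 9 members were matched (HDAC5 was not), each spanning 250 bases before to 50 after the start, and motifs were searched as letters on both strands. The HDAC8 start lies 78463 bases from that of its counted transcript, and the HDAC4 start 700 bases. HDAC4 and HDAC9 each had 5 promoters listed and HDAC6 had 3, of which the nearest was used. The GC box GGGCGG was found in 5 of the 9 (HDAC1, HDAC3, HDAC4, HDAC6 and HDAC10) and in 45.0% of all 35116 promoters in the table. CCAAT was found in 4 of 9 (HDAC1, HDAC6, HDAC9 and HDAC10) against 34.6% of all promoters, and CACGTG only in HDAC4 against 7.26%. TATAAA, TGACGTCA and the MEF2 motif were in none of the 9, against 11.5%, 1.85% and 2.99% of all. GC content was 74.7% for HDAC7 and 76.3% for HDAC4 but 47.3% for HDAC9, around a median of 58.7% over all promoters, so the class IIa genes that fell do not share a base composition.

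HDAC7, a class IIa corepressor known from lymphocytes and endothelium, is a gene of chromosome 12 (minus strand, ENSG00000061273). Nearly all its reads lie in the 3′ UTR at chr12:47782722-47783840 (hg38), where 183673 reads were counted over the 20 libraries. The genomic span of the counted 3′ UTR (chr12:47782726-47792658) overlaps SLC48A1 on the opposite strand, and whether counting used strand is not given in the sources used here. At 2 h its T>C reads were 47.6, 44.002 and 58.9 RPM in the 3 DMSO libraries and 19.5, 17.6 and 16.6 RPM in the 3 dCBP-30 libraries. Every treated library was below every control, a 2.80-fold fall (log2 fold change -1.49, standard error 0.18, adjusted p = 1.1e-09, edgeR's quasi-likelihood test). Total reads at the same time were 560.0, 602 and 854 RPM under DMSO and 648, 761 and 643 RPM under dCBP-30, and the groups overlapped (log2 fold change 0.02, standard error 0.15, adjusted p = 0.96).

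The share of HDAC7 reads that were T>C reads shows this directly. It was 8.49%, 7.31% and 6.90% under DMSO at 2 h and 3.01%, 2.32% and 2.58% under dCBP-30, where the libraries without 4sU gave 1.68% and 1.41%. The treated libraries thus sat nearer to the unlabelled libraries than to their controls. When each gene's conversions without 4sU were subtracted as background, the 2 h log2 fold change went from -1.49 to -2.49 (adjusted p = 1.2e-11), so the size of the early fall depends on this background.

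By 6 h both measures of HDAC7 were low. T>C reads were 57.4, 55.3 and 55.5 RPM under DMSO and 10.0, 12.3 and 16.0 RPM under dCBP-30, a 4.40-fold fall (log2 fold change -2.14, standard error 0.18, adjusted p = 5.5e-15). Total reads were 773, 811 and 721 RPM under DMSO against 168, 204 and 252 RPM, a 3.69-fold fall (log2 fold change -1.89, standard error 0.16, adjusted p = 3.7e-10), with no overlap between the groups. Total reads and T>C reads of HDAC7 were lowest at this time, with the background not subtracted. For T>C reads the change at 6 h did not pass as different from that at 2 h (-0.65, standard error 0.25, adjusted p = 0.11, edgeR's quasi-likelihood test). The T>C share under dCBP-30 was lower at 2 h than at 6 h (means of 2.64% and 6.11%). The T>C share was 5.96% to 6.34% under dCBP-30 and 6.82% to 7.70% under DMSO, while the levels of new and total RNA were both low.

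At 24 h HDAC7 was partly back. T>C reads were 81.7, 67.1 and 60.7 RPM under DMSO and 43.3, 30.5 and 45.4 RPM under dCBP-30, a 1.76-fold fall (log2 fold change -0.81, standard error 0.17, adjusted p = 9.8e-05). This lies only 0.12 below the median of all genes, and scaled by the T>C reads it was -0.17 (adjusted p = 0.45). Total reads were 862, 688 and 637 RPM under DMSO and 509, 459 and 542 RPM under dCBP-30 (log2 fold change -0.54, standard error 0.15, adjusted p = 0.0038), or -0.02 (adjusted p = 0.93) with total reads without TMM factors. Conversions per T>C read of HDAC7 were 1.35 under dCBP-30 and 2.11 under DMSO at 24 h, and their part in the T>C value was not tested. The return from 6 to 24 h was tested as the difference between the changes, which was 1.32 in T>C reads (standard error 0.25, adjusted p = 6.6e-05) and 1.35 in total reads (standard error 0.21, adjusted p = 2.0e-05). It passed in every alternative fit, each leave-one-out fit of the libraries involved included.

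**Figure D3:**
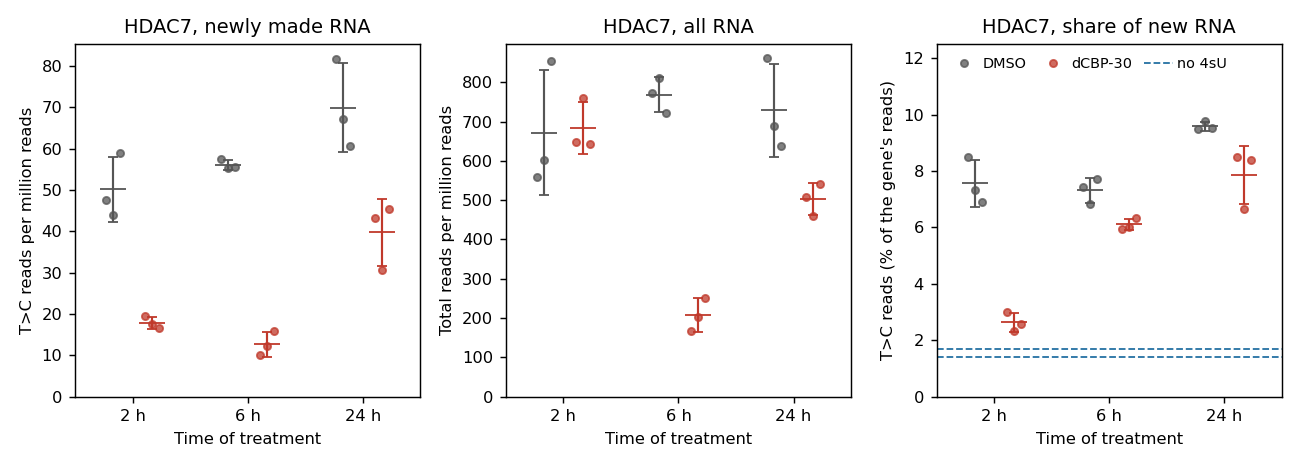
HDAC7 in each library by time of treatment, with DMSO in grey and dCBP-30 in red (points, with the mean and SD of 3 libraries). From left to right, T>C reads in RPM, total reads in RPM, and T>C reads as a percentage of HDAC7 reads, where dashed lines mark the 2 libraries without 4sU. T>C reads are low at 2 h, when total reads still overlap with DMSO. Without background subtraction both are lowest at 6 h, and both are higher again at 24 h. The share of T>C reads is lowest at 2 h.

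Across the 18 labelled libraries, the genes whose log2 T>C level followed that of HDAC7 most closely, of 7558 compared, were ARHGEF2 (Pearson r = 0.99), ATP8B2 (r = 0.98) and MGAT1 (r = 0.98). For HDAC2 they were EIF5AL1 (r = 0.94), NR2C2AP (r = 0.94) and PTCD3 (r = 0.93). The libraries share treatments and times, so these correlations describe a common pattern and were not tested.

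HDAC4, a class IIa corepressor recruited by MEF2 factors, lost new RNA at 6 h (3′ UTR at chr2:239048168-239053096, minus strand, ENSG00000068024). The DMSO libraries held 17, 46 and 45 T>C reads at 6 h (1.203, 3.08 and 3.05 RPM), and the dCBP-30 libraries 10, 1 and 1 (0.599, 0.0555 and 0.0613 RPM). No treated library reached a control (adjusted p = 5.1e-05, log2 fold change -3.33, standard error 0.66). Its size rests on few reads, and it was -5.21 without replicate 1 of dCBP-30, the library with 10 reads. At 2 h the T>C reads overlapped (29, 39 and 49 under DMSO, 34, 29 and 20 under dCBP-30), and at 24 h the level was 3.10 ± 0.489 RPM in the 3 DMSO libraries and 1.34 ± 0.188 RPM in the 3 treated ones (SD), which did not pass (log2 fold change -1.21, standard error 0.55, adjusted p = 0.076). Fitted at 24 h alone this comparison passed (adjusted p = 0.036), and over all alternatives the adjusted p ranged from 0.036 to 0.56.

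Total HDAC4 reads passed as lower at both 6 and 24 h. They were 9.70, 10.4 and 13.1 RPM under DMSO and 11.7, 14.4 and 11.9 RPM under dCBP-30 at 2 h, with overlap. At 6 h they were 11.3, 11.6 and 8.61 RPM against 3.89, 6.11 and 5.39 RPM, a 2.04-fold fall (adjusted p = 0.00085), and at 24 h 9.91, 8.82 and 9.21 RPM against 5.53, 5.71 and 5.96 RPM (log2 fold change -0.70, standard error 0.23, adjusted p = 0.011). The groups were apart at both times. With total reads without TMM factors the 24 h value was -0.18 (adjusted p = 0.51).

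HDAC9, the scarcest member, was lower in total reads at 6 and 24 h (chosen 3′ UTR at chr7:18666528-18668843, plus strand, ENSG00000048052). This region ends a shorter transcript form, and each DMSO library held only 49 to 89 reads there. At 2 h the groups overlapped, with 3.77, 4.30 and 4.56 RPM under DMSO and 2.76, 2.97 and 6.26 RPM under dCBP-30. At 6 h the level was 4.67, 5.97 and 3.66 RPM under DMSO and 1.14, 0.722 and 0.858 RPM under dCBP-30, a 5.23-fold fall (log2 fold change -2.39, standard error 0.42, adjusted p = 7.1e-05). At 24 h it was 3.69, 3.46 and 5.29 RPM against 0.711, 0.879 and 1.13 RPM (log2 fold change -2.18, standard error 0.42, adjusted p = 8.8e-05). No treated library overlapped a control at either time, and the level did not return by 24 h as HDAC7 did in part; the 2 genes' courses were not tested against each other.

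Few T>C reads of HDAC9 were counted, 0 to 22 per labelled library, and none of the comparisons passed (log2 fold changes -1.97, -2.13 and -2.37 at 2, 6 and 24 h, standard errors 1.39, 1.35 and 1.29). A second HDAC9 region, the 3′ UTR of a longer form at chr7:18996063-19002416, was read separately after the values had been seen. Its total reads were lower at 24 h (log2 fold change -1.84, standard error 0.59, adjusted p = 0.0099), and at 6 h the value was -1.39 (adjusted p = 0.059). In that region 10.9% of reads had a conversion without 4sU, so its T>C reads carry a high background.

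HDAC5, the remaining class IIa gene, did not pass in any comparison (chr17:44076746-44078375, minus strand, a region that overlaps G6PC3 on the other strand). Its total reads at 2 h were 65.3, 65.6 and 68.6 RPM under DMSO and 55.2, 58.8 and 46.5 RPM under dCBP-30, apart but not past the test (log2 fold change -0.31, standard error 0.16, adjusted p = 0.33). At 6 h they were 64.0, 41.3 and 51.5 RPM under DMSO and 51.6, 51.1 and 74.5 RPM under dCBP-30, groups that overlapped widely. At 24 h the log2 fold change in total reads was 0.10 with an interval of -0.21 to 0.42 (2 standard errors either side). In T>C reads the values were -0.76, 0.01 and -0.72 at 2, 6 and 24 h, each with a standard error of 0.40 to 0.41. Its 3′ UTR was also read in 2 parts, after the values had been seen. At 6 h T>C reads were at 0.41 (standard error 0.45) in the first 82 bases and -1.53 (standard error 0.80) in the rest. Neither part passed, and the difference between them was not tested. Without TMM factors total HDAC5 reads passed as higher at 6 h (0.50, adjusted p = 0.014) and 24 h (0.63, adjusted p = 0.0015).

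HDAC2, a class I catalytic subunit of NuRD, SIN3 and CoREST complexes, was the member of its class that fell (3′ UTR at chr6:113933028-113941057, minus strand, ENSG00000196591). T>C reads at 2 h were 13.0, 13.0 and 9.11 RPM under DMSO and 10.6, 9.17 and 5.38 RPM under dCBP-30, which overlapped. They were 11.7, 8.38 and 9.83 RPM against 6.71, 5.11 and 4.96 RPM at 6 h (log2 fold change -0.83, standard error 0.27, adjusted p = 0.016) and 14.5, 14.6 and 12.3 RPM against 4.76, 3.74 and 5.15 RPM at 24 h (log2 fold change -1.60, standard error 0.27, adjusted p = 1.7e-06). The groups did not overlap at 6 or 24 h, and the 24 h fall was 3.03-fold, 0.91 below the median gene on the log2 scale. The 6 h call was lost without replicate 2 or replicate 3 of dCBP-30 at 6 h (-0.77 and -0.75, adjusted p = 0.062 each) and without replicate 1 of DMSO (-0.70, adjusted p = 0.088), and it was -0.52 (adjusted p = 0.16) when scaled by the T>C reads.

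Total HDAC2 reads fell by less. They were 131, 127 and 129 RPM under DMSO at 2 h and 103, 108 and 113 RPM under dCBP-30, apart but not past the test (log2 fold change -0.26, standard error 0.11, adjusted p = 0.24). At 6 h they were 133, 112 and 124 RPM against 94.7, 80.5 and 81.0 RPM (log2 fold change -0.53, standard error 0.11, adjusted p = 0.000575), and at 24 h 113, 120.3 and 126 RPM against 80.3, 66.9 and 61.3 RPM (log2 fold change -0.78, standard error 0.11, adjusted p = 1.8e-06). Treated libraries lay below controls throughout. Without TMM factors the 6 h value was -0.21 (adjusted p = 0.13) and the 24 h value -0.26 (adjusted p = 0.046).

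The parts of the long HDAC2 3′ UTR differed in their share of T>C reads. Its first 340 bases (chr6:113940718-113941057), which are a 3′ UTR of their own in the annotation, took 30688 reads over the 20 libraries, and the part beyond them took 1965. Under DMSO 7.38% of reads in the near part and 43.97% in the far part were T>C reads, and T positions per read were not counted for each part. This split was made after the values had been seen. At 24 h T>C reads of the far part were 5.01 ± 0.812 RPM under DMSO and 0.689 ± 0.172 RPM under dCBP-30 (SD, n = 3; log2 fold change -2.85, standard error 0.49), and those of the near part 8.80 ± 0.747 and 3.86 ± 0.583 (log2 fold change -1.19, standard error 0.32). At 6 h the far part was level (0.01, standard error 0.45), while the near part was lower (-1.29, standard error 0.33, adjusted p = 0.0019). The difference between the parts was not tested.

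HDAC1, the paralog and partner of HDAC2 in the same complexes, went the other way in total reads at 24 h (chr1:32333045-32333626, plus strand, ENSG00000116478). Its level was 85.1, 104 and 88.0 RPM under DMSO and 115, 116 and 130.5 RPM under dCBP-30, a 1.30-fold rise with no overlap (log2 fold change 0.38, standard error 0.12, adjusted p = 0.0070). The size of this rise depended on the fit: over the alternatives other than leaving out a library it was 0.35 to 0.91 and passed in each. At 2 and 6 h the groups overlapped, with log2 fold changes of -0.09 and -0.12. T>C reads did not pass, and at 24 h they were 9.85, 9.66 and 9.50 RPM under DMSO and 8.15, 12.2 and 7.73 RPM under dCBP-30 (log2 fold change -0.05, interval -0.62 to 0.53). In DESeq2 scaled by T>C size factors the 24 h value was 0.72 and passed (adjusted p = 0.048). Of HDAC1 reads, 1.48% were multimapped, the highest share in the family beside 1.47% for HDAC7.

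HDAC3, the catalytic subunit of the NCoR and SMRT complexes, had small changes in total reads whose calls depended on the fit (chr5:141620881-141621467, minus strand, ENSG00000171720). Total reads were 128, 117 and 113 RPM under DMSO at 6 h and 147, 156 and 138 RPM under dCBP-30, which passed as 1.23-fold higher (adjusted p = 0.031). The call was lost without replicate 1 or 2 of dCBP-30 at 6 h (adjusted p = 0.059 and 0.11) and without replicate 2 or 3 of DMSO (adjusted p = 0.084 and 0.11). Over the alternatives other than leaving out a library the 6 h log2 fold change was 0.29 to 0.62. At 24 h the groups overlapped (log2 fold change 0.23, standard error 0.11, adjusted p = 0.076), and the comparison passed without replicate 2 of dCBP-30 (0.34, adjusted p = 0.012). In DESeq2 the 24 h comparison passed as higher as well. T>C reads of HDAC3 stayed within 0.32 of 0 on the log2 scale at the 3 times and did not pass.

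HDAC8, a class I enzyme that works outside the large complexes and deacetylates cohesin, rose in total reads (ENSG00000147099, chromosome X, minus strand, with most of its reads at chrX:72329538-72330053). The genomic span of the counted 3′ UTR (chrX:72329519-72494349) overlaps another annotated gene on the same strand, ENSG00000285547, so some reads could belong to it. Whether the overlap reaches the stretch with most reads was not tested. Total reads were 22.4, 27.5 and 23.1 RPM under DMSO at 6 h and 36.6, 32.0 and 34.4 RPM under dCBP-30 (log2 fold change 0.50, standard error 0.16, adjusted p = 0.017), and 24.8, 30.5 and 27.3 RPM against 58.5, 53.1 and 43.1 RPM at 24 h, a 1.87-fold rise (log2 fold change 0.90, standard error 0.16, adjusted p = 3.3e-05). The groups were apart at both times but overlapped at 2 h. The 6 h call was lost without replicate 1 of dCBP-30 (adjusted p = 0.055) and without replicate 1 or 3 of DMSO (adjusted p = 0.062 each).

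HDAC8 was also the member with the highest change in T>C reads at 6 and 24 h, though neither passed. At 6 h these were 1.13, 1.01 and 0.746 RPM under DMSO and 1.86, 2.00 and 2.82 RPM under dCBP-30 (log2 fold change 1.204, standard error 0.55, adjusted p = 0.11), and at 24 h 2.53, 1.67 and 2.61 RPM against 4.98, 3.79 and 3.11 RPM (log2 fold change 0.80, standard error 0.52, adjusted p = 0.22). The groups did not overlap. Scaled by the T>C reads both passed, at 1.51 (adjusted p = 0.039) and 1.46 (adjusted p = 0.026). At 2 h replicate 2 of dCBP-30 held 58 T>C reads of HDAC8 and the other 2 libraries of its group 8 and 13.

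Both class IIb genes rose at 24 h in total reads. HDAC6, the tubulin deacetylase, was at 20.4, 15.1 and 20.7 RPM under DMSO and 42.0, 35.1 and 34.4 RPM under dCBP-30, a 1.98-fold rise (ENSG00000094631, chromosome X, plus strand, most reads at chrX:48824613-48824957; log2 fold change 0.99, standard error 0.18, adjusted p = 5.9e-05). At 6 h its groups overlapped, at 22.4, 16.96 and 26.7 RPM against 28.1, 23.7 and 26.4 RPM (adjusted p = 0.31). HDAC10 was at 11.9, 10.3 and 13.7 RPM under DMSO at 24 h and 26.1, 29.1 and 23.7 RPM under dCBP-30, a 2.20-fold rise (ENSG00000100429, chromosome 22, minus strand, most reads at chr22:50245183-50245506; log2 fold change 1.14, standard error 0.24, adjusted p = 0.00026). At 6 h replicate 3 of dCBP-30 stood at 17.7 RPM and the other 2 libraries at 7.78 and 8.27 RPM, beside 8.61 to 9.98 RPM under DMSO.

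New RNA of these genes could hardly be measured. HDAC6 had 1 to 27 T>C reads per labelled library and HDAC10 1 to 12, and neither passed at any time. At 24 h the T>C log2 fold changes were -0.57 (interval -2.27 to 1.12) for HDAC6 and 0.05 (interval -2.12 to 2.21) for HDAC10. The share of T>C reads at 24 h went from 6.24% ± 2.40 with DMSO to 2.08% ± 0.928 with dCBP-30 for HDAC6, and from 4.79% ± 1.45 to 2.21% ± 0.305 for HDAC10 (SD of 3 libraries). Over all genes this share was lower as well, at 8.15% to 8.62% with DMSO and 5.92% to 6.86% with dCBP-30. Without 4sU the HDAC6 share was 1.03% (both libraries together). The rise of the total level at 24 h thus came with no measured rise in T>C reads, at a depth where a change of more than 2-fold either way lies inside the intervals. The rise in total reads itself was larger without TMM factors, 1.51 for HDAC6 and 1.66 for HDAC10.

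**Figure D4:**
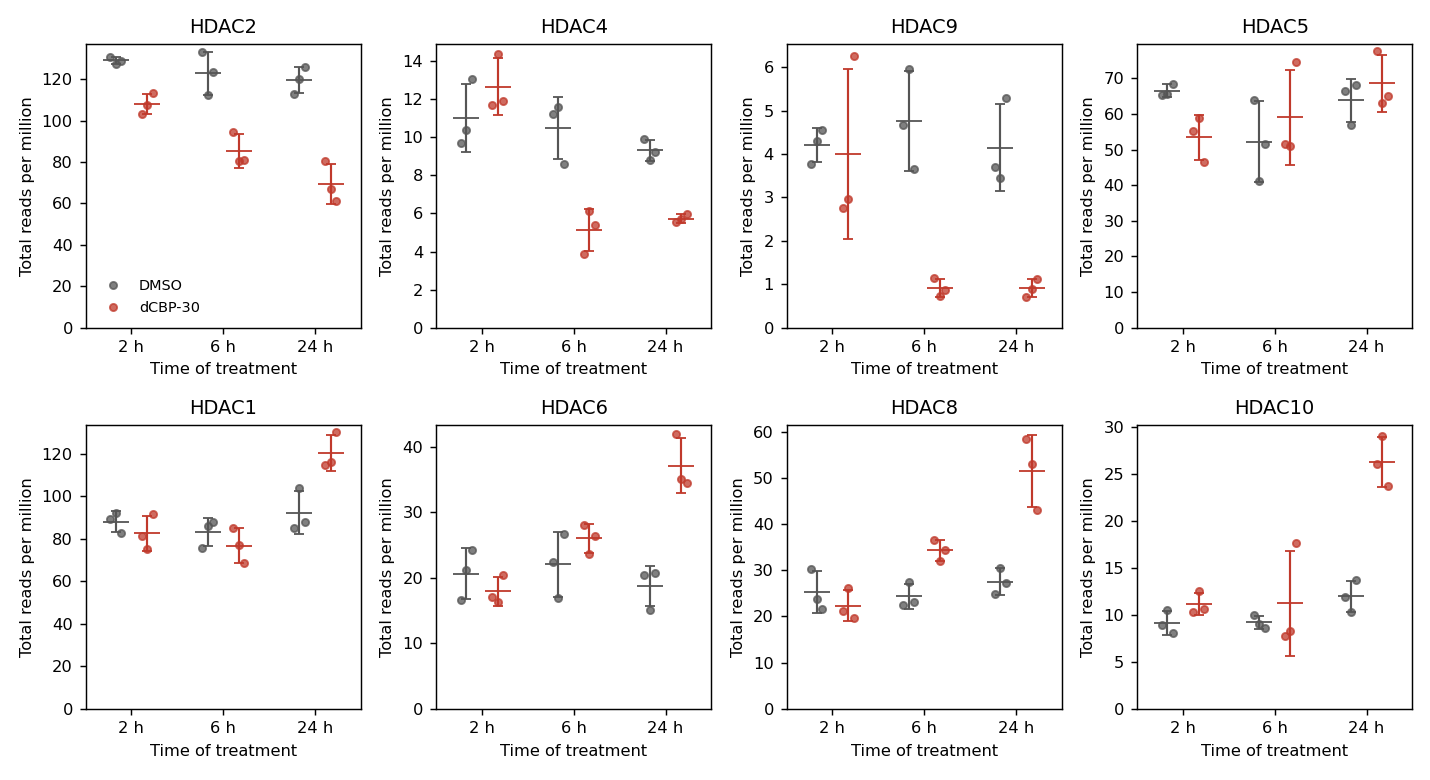
Total RPM in each library for the members other than HDAC7 and HDAC3, by time of treatment, with DMSO in grey and dCBP-30 in red (points, with the mean and SD of 3 libraries; each panel has its own scale from 0). HDAC4 and HDAC9 drop between 2 and 6 h, HDAC2 is lower at each time, and HDAC1, HDAC6, HDAC8 and HDAC10 lie above DMSO at 24 h.

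HDAC7 held the largest share of the family's reads in each group. At 6 h the family's summed total reads were lower with HDAC7 and not without it. Of the 10 members' total reads, HDAC7 took 58.7% ± 5.75 with DMSO for 2 h and 61.5% ± 2.46 with dCBP-30 (SD of 3 libraries). The share was 63.1% ± 2.03 against 31.6% ± 4.62 by 6 h, and 60.8% ± 4.52 against 49.3% ± 1.87 by 24 h. The summed total level of all 10 genes went from 1217 ± 42.6 RPM to 654 ± 39.7 RPM at 6 h, whereas without HDAC7 it was 449 ± 21.8 and 446 ± 10.4 RPM. In T>C reads the 6 h sum without HDAC7 was lower as well, at 30.2 ± 2.86 RPM under DMSO and 23.0 ± 1.24 RPM under dCBP-30. These sums were not tested. In the 6 h dCBP-30 libraries HDAC3, at 22.6% of the family's reads, came next after HDAC7.

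HDAC11, the class IV enzyme, and the sirtuins, unrelated deacetylases that use NAD, were read beside the 10 genes. HDAC11 was nearly silent under DMSO, with 3 to 15 reads in each of the 9 libraries (0.514 ± 0.272 RPM). Total reads were 0.194, 0.596 and 0.508 RPM under DMSO at 24 h and 6.24, 5.55 and 6.38 RPM under dCBP-30 (log2 fold change 3.78, standard error 0.64, adjusted p = 1.8e-05), and the 6 h change was 2.18 (standard error 0.61, adjusted p = 0.0056). Most DMSO libraries held fewer HDAC11 reads than the filter's minimum count of 10. Each dCBP-30 library at 6 and 24 h held more, so the gene was kept for testing mainly through treated libraries. The size of these changes rests on the few DMSO reads. HDAC11 had too few T>C reads to be tested. Of the 7 sirtuins 6 were tested, and SIRT1, SIRT2, SIRT3 and SIRT7 passed as higher in total reads at 24 h (log2 fold changes 0.89, 1.29, 1.04 and 0.76; 28.6% of all genes were higher) while none passed in T>C reads at any time. SIRT1 was also higher at 2 h (0.59, adjusted p = 0.032), where 1.54% of all genes were higher. At 6 h SIRT5, a mitochondrial sirtuin, was lower (-0.64, adjusted p = 0.012) and 4 were higher, against 21.5% of all genes lower and 18.8% higher. The median sirtuin changed by 0.83 in total reads at 24 h, against 0.05 for all genes.

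Partners of the class I enzymes were counted from fixed lists of complex subunits. Of 40 corepressor subunits tested for T>C reads, 4, 9 and 17 passed as lower after 2, 6 and 24 h and 1 each time as higher. Of all genes 8.35%, 21.3% and 37.1% were lower and 2.45%, 3.02% and 2.78% higher, so the list's counts lie near those of all genes. The median changes of the list were -0.15, -0.48 and -0.55, against 0.05, -0.27 and -0.69 for all genes. In total reads at 24 h, 12 of 43 were lower and 13 higher, against 29.9% and 28.6% of all genes. NuRD, the nucleosome remodelling complex of HDAC1 and HDAC2, had 7 of 10 subunits lower in T>C reads at 24 h (median -1.06), where 37.1% of all genes were lower with a median of -0.69, among them the histone chaperones RBBP4 (-1.78, standard error 0.25) and RBBP7 (-1.29, standard error 0.27) and the subunit GATAD2A (-1.14, standard error 0.23). RBBP4 and RBBP7 are also subunits of other complexes. SIN3 had 5 of 13 lower and 1 higher, close to the share of all genes and with a median of -0.46 that lies above theirs, with the scaffold SIN3A at -1.58 (standard error 0.22) and the ING1 and ING2 subunits at -0.93 and -1.71.

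The NCoR/SMRT list, which holds the scaffolds that carry HDAC3, differed within itself. In T>C reads at 6 h 3 of its 5 genes were lower and 1 higher (median -2.31, against 21.3% of all genes lower, 3.02% higher and a median of -0.27), and the WD40 subunit genes TBL1X (-3.39) and TBL1XR1 (-2.40) were both lower. By 24 h these stood at -2.73 and -1.72, and TBL1XR1 had been lower from 2 h on (-1.91). NCOR1 was at -0.09, -0.11 and -0.72, of which the last passed (adjusted p = 0.031), and its total reads were higher at 24 h (0.43, adjusted p = 0.0015). In the CoREST list 1 of 9 genes tested, GSE1, passed as lower in T>C reads at 24 h (-1.40, standard error 0.38). Of all genes 37.1% were lower, and the list's median was 0.01 against -0.69. GSE1 had been at -2.18 at 2 h and -4.20 at 6 h. KDM1A, the histone demethylase, and the scaffold RCOR1 did not pass at 24 h (-1.34 and -0.82). In total reads at 24 h 1 of 10 CoREST genes was lower and 5 were higher, against 29.9% and 28.6% of all genes. Their median was 0.60, against 0.05 for all genes. In MiDAC, the mitotic deacetylase complex, MIDEAS was lower at the 3 times (-1.68, -1.95 and -2.14), TRERF1 was lower at 6 h (-1.72), and DNTTIP1 did not pass in T>C reads but was higher in total reads at 6 h (0.67, adjusted p = 0.00012).

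Partners of class IIa were counted in the same way. Of 9 genes for MEF2 factors and 14-3-3 proteins, 3, 6 and 5 were lower in T>C reads at 2, 6 and 24 h and none was higher, against 8.35%, 21.3% and 37.1% of all genes lower, with medians of -0.38, -0.94 and -0.93. In total reads at 24 h 4 of the 9 were lower and 2 higher, against 29.9% and 28.6% of all genes. MEF2C, which recruits class IIa enzymes to DNA, was at -1.92, -2.05 and -1.73 (standard errors 0.19 to 0.20, each passing), and the 14-3-3 genes YWHAH (-0.94, then -2.10) and YWHAG (-1.07, then -1.15) were lower at 6 h and at 24 h. Among 8 kinases that send class IIa enzymes out of the nucleus, 2, 4 and 4 were lower in T>C reads and none higher, against the same shares of all genes, with medians of 0.16, -0.66 and -0.83. In total reads 1, 5 and 2 of the kinases were lower and 1 was higher at each time. Of all genes 2.67%, 21.5% and 29.9% were lower in total reads and 1.54%, 18.8% and 28.6% higher. PRKD3 was at -1.63, -2.26 and -1.93, PRKD2 at -2.78, -2.002 and -1.66, and SIK1 at 0.36, -2.22 and -1.45, of which the first did not pass.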

How the data were processed

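Conversions were read by SLAM-seq in MM1.S cells, in 18 libraries with 4sU and 2 without. The authors trimmed the 3′-end reads, ran the Slamdunk workflow on 3′ UTRs of hg38 and deposited raw counts of reads and T>C reads per transcript, not normalized and not pooled; the submitters' processing notes also name Trim Galore and DESeq. Of 97466 transcript rows 91.4% matched GENCODE release 44, and each gene was given its transcript with the most reads (19593 genes). The 10 members, the partner lists and the tests were chosen with earlier results of these data known.

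edgeR 4.0.16 (R 4.3.3) was fitted to the counts of the 18 libraries with 4sU (a mean for each group), library size from total reads times TMM factors also for T>C reads, filterByExpr (minimum count 10), the robust quasi-likelihood test and Benjamini-Hochberg adjustment. A member passes at an adjusted p under 0.05. Libraries of a group were not copies (chi-square per degree of freedom 8.54 or more). All members and, as the remaining family, HDAC11 and sirtuins were named, and for each complex, partner or kinase list at most the 3 genes with the lowest adjusted p in T>C reads at 24 h. Likeness used log2(RPM + 0.5) over genes that averaged 20 or more T>C reads. The fit was tested on simulated data. Alternatives were other scalings, DESeq2 1.42.0, other filters, background subtraction, a replicate block, leaving out each library, and, added after seeing the data, another 3′ UTR. Analysis used Python 3.11.15.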

Additional observations from a re-analysis of the deposited data

Results flagged for a closer look

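The change under dCBP-30 differed between time points, by a test of the difference itself, for several members; the tests are edgeR's quasi-likelihood test with adjustment over all genes, and comparisons that share a time point share its libraries. In T>C reads, 1 of 10 members passed for 6 against 2 h (8.03% of all genes), 2 for 24 against 2 h (26.0%) and 1 for 24 against 6 h (12.1%). HDAC4 was further down at 6 than at 2 h by -2.82 on the log2 scale (adjusted p = 0.027), and 7 of its 12 leave-one-out fits lost the call. HDAC2 was further down at 24 than at 2 h by -1.11 (adjusted p = 0.022), with 4 of 12 lost. HDAC7 was less far down at 24 h than at 2 h by 0.67 (adjusted p = 0.035), with 7 of 12 lost, and than at 6 h by 1.32 (adjusted p = 6.6e-05), with none lost.

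In total reads, 4 of 10 members passed for 6 against 2 h (15.7% of all genes), 8 for 24 against 2 h (41.1%) and 3 for 24 against 6 h (32.1%). From 2 to 6 h the change moved by -1.23 for HDAC4, -1.91 for HDAC7, -2.32 for HDAC9 and 0.67 for HDAC8 (adjusted p = 0.0083, 2.9e-07, 0.0055 and 0.047). The HDAC8 call was lost in 9 of 12 leave-one-out fits and the others in none. From 2 to 24 h the differences were 1.19 for HDAC6, 1.08 for HDAC8, 0.85 for HDAC10 and 0.47 for HDAC1. For the members that fell they were -2.11 for HDAC9, -0.90 for HDAC4, -0.56 for HDAC7 and -0.53 for HDAC2. HDAC10 stood at the threshold (adjusted p = 0.0499), and 9 of 12 leave-one-out fits lost it, as did 6 for HDAC1, 6 for HDAC7 and 4 for HDAC4. From 6 to 24 h HDAC7 moved by 1.35, HDAC6 by 0.75 and HDAC1 by 0.50, and leave-one-out fits lost 4 of 12 for HDAC6 and 5 of 12 for HDAC1.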

How the results depend on the processing

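Counts of members that passed at 2, 6 and 24 h stayed within 1.5 times of the values given, in T>C reads at 1, 3 to 4 and 2 to 3 over the alternatives other than leaving out a library, and in total reads at 0, 5 to 8 and 8 to 9. Without one library at a time they were 1, 2 to 3 and 2 in T>C reads and 0, 4 to 6 and 8 to 9 in total reads. Scaling changed which members passed: by the T>C reads, HDAC8 passed as higher at 6 and 24 h while HDAC2 at 6 h and HDAC7 at 24 h did not pass, as their values above show. HDAC1 in T>C reads at 24 h turned from -0.05 to 0.72 (adjusted p = 0.048) in DESeq2 scaled by T>C size factors. Differences between time points were less stable. For 6 against 2 h in T>C reads 0 members passed when scaled by the T>C reads, with total reads without TMM factors, in DESeq2 scaled by T>C size factors, with background subtracted and summed over transcripts (0 to 1 without one library); for 24 against 2 h these were 1, 1 and 1 with those scalings and 0 summed over transcripts (0 to 2 without one library). For 24 against 6 h 2 passed in DESeq2 scaled by T>C size factors and at an adjusted p under 0.1 (1 to 2 without one library). In total reads 2 passed for 6 against 2 h summed over transcripts (3 to 4 without one library) and 5 for 24 against 6 h with total reads without TMM factors (1 to 3 without one library), while 24 against 2 h gave 4 to 8 without one library. The cause was not tested. Replicate numbers did not pair the samples: the same numbers correlated at -0.187 to 0.045. With a replicate block, 3 members passed in T>C reads at 6 h and 8 in total reads at 24 h, as without it, and the one lost call was HDAC10 for 24 against 2 h (0.86, adjusted p = 0.059). Few T>C reads limit HDAC6, HDAC9 and HDAC10: standard errors were 0.85 to 1.39, and a 5.18-fold lower HDAC9 level at 24 h did not pass.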
